A study of Mus musculus with 9 samples.

Results

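The 10 genes described here, Cdkn1a, Mdm2, Ccng1, Trp53inp1, Sesn1, Sesn2, Zmat3, Phlda3, Eda2r and Btg2, are targets of the transcription factor p53 that act in cell-cycle arrest, in feedback on p53 and in the handling of stress. They were taken by gene symbol from a count table of 54134 entries, and all 10 were among the 13810 genes abundant enough to test. Their levels were followed in 9 RNA-sequencing libraries of HT22, an immortalised mouse hippocampal line used as a model of neurons, whose labels give a wild-type genotype and also the cell type HT-4. There were 3 libraries of control cells without intervention, 3 of cells given oxyhemoglobin (Hb) and 3 of cells given oxyhemoglobin together with an agent labelled NTR1 (Hb+NTR1). The series title concerns subarachnoid hemorrhage, in which neurons meet hemoglobin from lysed blood, and names an agent NGR1. Neither dose nor exposure time is stated in the labels, and no group received NTR1 alone, so an effect of NTR1 without hemoglobin was not measured. All libraries come from 1 line, and nothing in the labels says that the replicates were separate cultures, so p-values measure the spread between these libraries, which may be technical.

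p53 is held at a low level by the ubiquitin ligase Mdm2 and accumulates when DNA is damaged or the cell is otherwise stressed. It then binds DNA as a tetramer and raises the transcription of genes that stop the cell cycle, repair DNA, change metabolism or kill the cell, and of Mdm2 itself, which closes a negative feedback loop. In neurons, p53 is best known for its part in death after ischemia, excitotoxicity and DNA damage. Many of its targets also have other inducers: Btg2 is an immediate early gene of growth factor signalling, and Sesn2 is also a target of ATF4 in the integrated stress response and of NRF2 in the oxidative stress response.

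Deposited totals were 14390296 to 16918242 counts in control, 13435891 to 14752309 in Hb and 13964488 to 14298879 in Hb+NTR1 libraries, and 3 counts corresponded to 0.178 to 0.224 CPM (counts scaled to a common library size), so that each of the 10 genes was far above this floor. Hb replicate 2 stood apart from its group. By a chi-square statistic over genes, used as a distance without a test, it was 12.8 and 10.6 per degree of freedom from the other Hb libraries. Those 2 differed by 5.06, and the replicates of the other groups by 2.49 to 4.02. Mitochondrial genes took 4.73% to 5.20% of the counts in control, 4.14% to 4.57% in Hb and 6.19% to 6.65% in Hb+NTR1. Of 16 neuronal markers, 12 were under 1 CPM in each group, and Map2, Snap25 and Gad1 had no count in any library. The others, Dlg4, Tubb3, Syn1 and Eno2, were at 70.2, 32.6, 24.7 and 11.2 CPM in control. The label of a neuronal line was thus not borne out by most of these markers. The summed level of the neuronal list was 135 to 142 CPM in control, 142 to 151 in Hb and 68.9 to 72.1 in Hb+NTR1, and that of 10 fibroblast markers, led by collagens, was 14000 to 14900, 11300 to 12700 and 1300 to 1400. The astrocyte, microglia and oligodendrocyte lists summed to 200 to 229, 18.6 to 25.9 and 4.08 to 4.65 CPM in control and to 8.63 to 10.0, 4.14 to 4.25 and 1.78 to 1.95 in Hb+NTR1, with Aqp4, P2ry12 and Olig2 at 0 in all 9 libraries. In Hb the same lists summed to 115 to 138, 13.1 to 14.8 and 2.33 to 2.87 CPM. These lists and the fibroblast list were thus lower in Hb than in control, without overlap. Marker differences therefore run with the groups in every comparison below, Hb against control included, and their part in the results was not tested. In such bulk libraries, fewer cells of a type and less RNA per cell cannot be told apart.

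Against control, hemoglobin raised 6 of the 10 genes, Cdkn1a, Mdm2, Ccng1, Trp53inp1, Zmat3 and Eda2r, by 1.17-fold to 1.4-fold, and lowered Btg2. A gene was called at an adjusted p under 0.05 in the quasi-likelihood test of edgeR, adjusted by Benjamini and Hochberg's method over all tested genes. By that rule 3.65% of all tested genes were called in this comparison, 1.88% higher and 1.77% lower. That is 259 genes higher and 245 lower, a split that moved to 377 and 196 with library totals in place of TMM factors, while 6 and 1 of the 10 genes were called with either. The median log2 fold change of the 10 genes was 0.26, against 0 over all tested genes. The libraries of the 2 groups did not overlap for 8 of the 10 genes, as for 19.6% of all genes. Sesn1, Sesn2 and Phlda3 were not called. The count rested in part on the control libraries: without control replicate 1 it was 3 higher and 1 lower, in a fit that called 315 genes in place of 504. Without Hb replicate 2, the library that stood apart, it was 6 higher and 1 lower, as with all libraries, in a fit that called 1125 genes (533 higher, 592 lower).

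When NTR1 was given with hemoglobin, the 10 genes moved apart. Compared with Hb, Cdkn1a, Mdm2, Ccng1, Trp53inp1 and Btg2 rose, Zmat3 and Sesn1 fell, and Sesn2, Phlda3 and Eda2r were not called. This comparison reached most of the transcriptome, with 30.7% of all tested genes called higher and 31.6% lower, so that 7 called genes of 10 stood close to the background of 62.3%. The 7 called genes were also the 7 whose libraries did not overlap, as did 64.7% of all genes. The median log2 fold change of the 10 genes was 0.21, against -0.01 over all genes. Against control, Hb+NTR1 libraries had 6 of the genes called higher and 2 lower, where 63.6% of all genes were called, 31.4% higher and 32.2% lower. Libraries did not overlap for 8 of the 10 genes in that comparison, against 69.9% of all genes, and the median was 0.60, against 0.00. Each pair of comparisons shares a group of libraries, so that their values are given side by side and are not independent of each other.

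**Figure D1:**
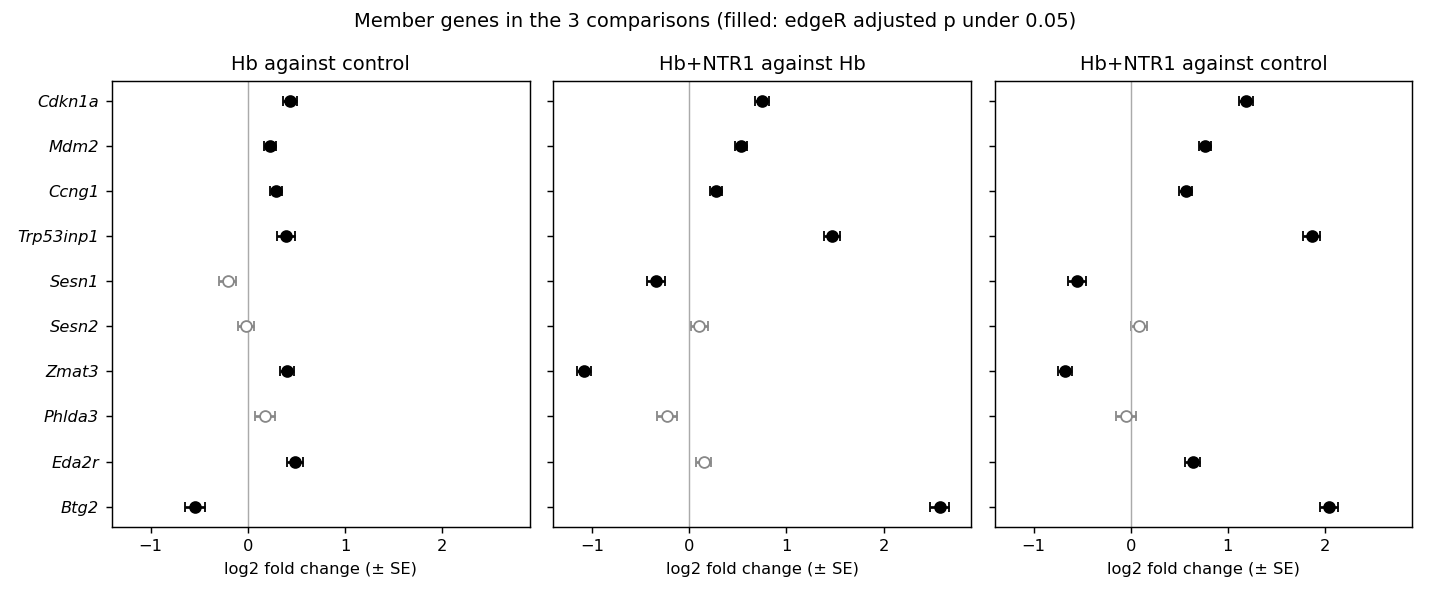
Log2 fold change ± SE of the 10 genes in the 3 comparisons, from edgeR's fit of 9 libraries, with filled points for an adjusted p under 0.05 and open points for genes not called. Zmat3 lies at 0.40 in Hb against control and at -1.08 in Hb+NTR1 against Hb, while Btg2 lies at -0.54 and 2.58.

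Cdkn1a encodes p21, the inhibitor of cyclin-dependent kinases through which p53 stops the cell cycle. Its gene (ENSMUSG00000023067.14) lies at chr17:29090976-29100727 on the plus strand of GRCm38. Its level was 74.4, 81.2 and 85.1 CPM in the control libraries, 105, 115 and 105 in Hb and 166, 199 and 181 in Hb+NTR1. The 3 groups did not overlap, with control lowest and Hb+NTR1 highest. Hemoglobin raised Cdkn1a 1.35-fold (log2 0.43 ± 0.0752, adjusted p = 0.000894). Hb+NTR1 was a further 1.68-fold above Hb (log2 0.75 ± 0.0735, adjusted p = 4.66e-09) and 2.27-fold above control (log2 1.19 ± 0.0746, adjusted p = 1.73e-12). Of the exon bases of Cdkn1a, 273 (7.68%) overlap an unverified transcript, AC167363.2, on the opposite strand, and the labels do not say whether strand was used in counting.

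Btg2, a protein that slows the cell cycle by recruiting the deadenylase complex to messenger RNAs, changed most among the 10 genes in both comparisons of Hb+NTR1. The gene (ENSMUSG00000020423.6) lies at chr1:134075170-134079120 on the minus strand. Control libraries held 20.1, 21 and 26.1 CPM, Hb libraries 15, 15.4 and 15.6, and Hb+NTR1 libraries 90.9, 97.6 and 86.5. Every Hb library was below every control library, and every Hb+NTR1 library was far above the highest control library. Btg2 fell 1.46-fold with hemoglobin (log2 -0.54 ± 0.105, adjusted p = 0.00262). It rose 5.98-fold from Hb to Hb+NTR1 (log2 2.58 ± 0.0976, adjusted p = 1.83e-16), the rise ranked 118 among the 13810 genes. Against control the rise was 4.10-fold (log2 2.04 ± 0.0928, adjusted p = 4.49e-15). Btg2 is the only one of the 10 genes among the 691 of the authors' deposited table for Hb+NTR1 against control, which lists it at a log2 fold change of 2.04 and an adjusted p of 9.23e-96. Every gene in the authors' deposited table has an absolute log2 fold change of at least 2.005.

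Mdm2, the ligase that marks p53 for degradation, stepped up from group to group. The gene (ENSMUSG00000020184.15) lies at chr10:117688875-117710758 on the minus strand. Its level was 123, 124 and 127 CPM in control, 150, 143 and 143 in Hb and 216, 198 and 220 in Hb+NTR1, with no overlap between groups. The step from control to Hb was small, 1.17-fold (log2 0.23 ± 0.0625, adjusted p = 0.0397), and was lost in 7 of 13 alternative fits, among them those without control replicate 1 (0.166), 2 (0.171) or 3 (0.127) and without Hb replicate 1 (0.113) or 3 (0.0576). The step from Hb to Hb+NTR1 was 1.45-fold (log2 0.54 ± 0.0619, adjusted p = 7.11e-08) and the whole rise from control 1.70-fold (log2 0.76 ± 0.0622, adjusted p = 1.82e-10).

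Ccng1 encodes cyclin G1, which recruits phosphatase 2A to Mdm2. It lies at chr11:40748552-40755311 on the minus strand (ENSMUSG00000020326.7). Its CPM were 386, 423 and 424 in control, 472, 532 and 500 in Hb and 623, 597 and 602 in Hb+NTR1. The groups again stood in the same order without overlap, but the steps were even: 1.22-fold from control to Hb (log2 0.29 ± 0.0636, adjusted p = 0.00887) and 1.21-fold from Hb to Hb+NTR1 (log2 0.28 ± 0.0634, adjusted p = 0.000561). Against control, Hb+NTR1 was 1.48-fold higher (log2 0.56 ± 0.0636, adjusted p = 4.42e-08). Without control replicate 1, the first step missed the threshold (adjusted p = 0.0998).

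Zmat3, an RNA-binding zinc finger protein that p53 induces and that acts on the splicing and stability of messenger RNAs, rose with hemoglobin and fell below control with NTR1. The gene (ENSMUSG00000027663.12) lies at chr3:32334792-32366014 on the minus strand. Levels were 83.2, 82.4 and 87.7 CPM in control, 120, 108 and 107 in Hb and 54.4, 55.1 and 48.7 in Hb+NTR1. The 3 groups did not overlap, with Hb highest and Hb+NTR1 lowest. The rise with hemoglobin was 1.32-fold (log2 0.40 ± 0.0711, adjusted p = 0.00102). Hb+NTR1 was 2.12-fold below Hb (log2 -1.08 ± 0.0734, adjusted p = 7.60e-12) and 1.6-fold below control (log2 -0.68 ± 0.0737, adjusted p = 2.44e-08).

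**Figure D2:**
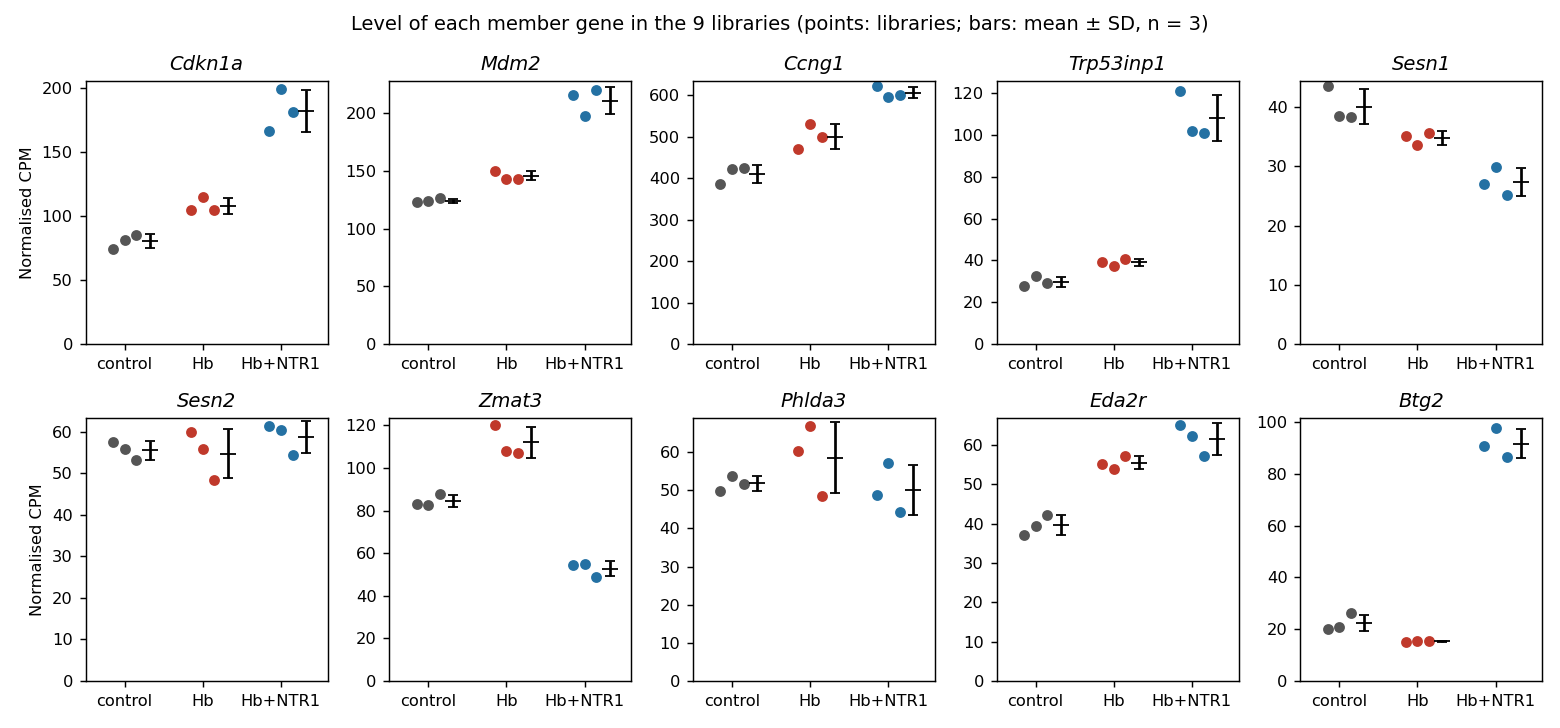
Normalised CPM of each of the 10 genes in the 9 libraries, with a point for each library and bars for the mean ± SD of 3 libraries, on axes that start at 0. Cdkn1a, Mdm2 and Ccng1 rise over the 3 groups, Zmat3 is highest in Hb, and Btg2 is lowest in Hb and above 86 CPM in Hb+NTR1. All 3 groups overlap for Sesn2 and Phlda3, and Hb and Hb+NTR1 overlap for Eda2r.

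Trp53inp1 encodes a nuclear protein that p53 induces and that takes part in p53 phosphorylation and in autophagy. It lies at chr4:11156431-11174379 on the plus strand (ENSMUSG00000028211.11). Control libraries had 27.6, 32.4 and 29.3 CPM, Hb libraries 39.4, 37.2 and 40.5, and Hb+NTR1 libraries 121, 102 and 101. The groups did not overlap, and the Hb+NTR1 libraries lay well above both others. Hemoglobin raised it 1.31-fold (log2 0.39 ± 0.0896, adjusted p = 0.0116), a call that was lost without control replicate 1 (adjusted p = 0.0883) or control replicate 3 (0.059). The rise from Hb to Hb+NTR1 was 2.77-fold (log2 1.47 ± 0.0842, adjusted p = 3.32e-13), the rank of which was 382 among rises over all genes, and the rise from control was 3.63-fold (log2 1.86 ± 0.0859, adjusted p = 5.74e-15).

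The sestrins Sesn1 and Sesn2 bind the amino acid sensing machinery and hold back the growth kinase complex mTORC1. Sesn1 (ENSMUSG00000038332.13, chr10:41809935-41908424, plus strand) was at 43.5, 38.5 and 38.3 CPM in control, 35.2, 33.6 and 35.7 in Hb and 27.1, 29.9 and 25.2 in Hb+NTR1. Its libraries did not overlap in any comparison, with control highest. The difference between Hb and control was not called (log2 -0.21 ± 0.0885, adjusted p = 0.238). Sesn1 fell 1.27-fold from Hb to Hb+NTR1 (log2 -0.35 ± 0.0914, adjusted p = 0.00211) and was 1.47-fold below control there (log2 -0.55 ± 0.0901, adjusted p = 1.06e-05). Sesn2 (ENSMUSG00000028893.8, chr4:132492032-132510501, minus strand) was at 57.6, 55.9 and 53.1 CPM in control, 59.9, 55.8 and 48.3 in Hb and 61.4, 60.5 and 54.4 in Hb+NTR1, and all 3 groups overlapped. None of its differences was called: the log2 values were -0.02 ± 0.0834 for Hb against control (adjusted p = 0.934), 0.10 ± 0.0834 for Hb+NTR1 against Hb (0.289) and 0.08 ± 0.0830 for Hb+NTR1 against control (0.401). Within a library, the ratio of Sesn2 to Sesn1 counts was 1.32 to 1.45 in control, 1.35 to 1.70 in Hb and 2.03 to 2.27 in Hb+NTR1, so that Hb+NTR1 stood apart from the other 2 groups in this ratio also.

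Phlda3, a pleckstrin homology domain protein that competes with AKT for membrane lipids, showed no called difference. The gene (ENSMUSG00000041801.5) lies at chr1:135766119-135769136 on the plus strand. Its levels were 49.9, 53.7 and 51.7 CPM in control, 60.2, 66.9 and 48.5 in Hb and 48.8, 57.2 and 44.2 in Hb+NTR1, overlapping in every comparison. Hb replicate 3 was the lowest library of its group. The log2 values were 0.18 ± 0.101 for Hb against control (adjusted p = 0.405), -0.23 ± 0.102 for Hb+NTR1 against Hb (0.0557) and -0.05 ± 0.102 for Hb+NTR1 against control (0.698). The second of these sat at the threshold and was called lower without Hb replicate 3 (0.00359) or without Hb+NTR1 replicate 2 (0.0125).

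Eda2r, the receptor of the tumour necrosis factor family that binds ectodysplasin A2, rose with hemoglobin and was not called different between Hb and Hb+NTR1. The gene (ENSMUSG00000034457.10) lies at chrX:97333840-97377216 on the minus strand. It had 37.1, 39.4 and 42.3 CPM in control, 55.2, 53.9 and 57.3 in Hb and 65.1, 62.3 and 57.2 in Hb+NTR1. Both groups with hemoglobin lay above control, and they overlapped each other by a small margin. The rise with hemoglobin was 1.4-fold (log2 0.49 ± 0.0795, adjusted p = 0.000468), the largest fold among the 6 genes called higher. Hb+NTR1 was at a log2 value of 0.15 ± 0.0776 from Hb (adjusted p = 0.0967) and 1.55-fold above control (log2 0.64 ± 0.0791, adjusted p = 2.06e-07). The ligand gene Eda had 0 to 2 counts per library, and the related receptor gene Edar 0 to 5, and neither was tested.

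To show the stretch of DNA in front of the genes that moved together or apart, the 250 bases before the RefSeq transcription start (GRCm38.p6) were searched on both strands. Windows were used for 8 of the 10 genes, 10 windows in all since Cdkn1a and Sesn1 have more than 1 start; Trp53inp1 and Zmat3 have no window here. The p53 half-site, the 10-base unit that occurs as a pair in a full response element, was matched in 4 windows, of Cdkn1a, Mdm2, Ccng1 and Sesn1, and in 7.13% of 32851 windows over the genome. A pair with a spacer of 0 to 13 bases, a search added after the matches were seen, was found in 1 of the 10 windows, that of Cdkn1a with a spacer of 12 bases, and in 0.0639% of all windows. Without a spacer, an exact pair was in none of the 10 and in 0.00913% of all windows. Only exact matches were counted. In the Cdkn1a window, GAACATGTCT is followed directly by tgacatgttc, which misses the half-site pattern at its first base, so that this pair was not counted. The 4 windows with a half-site and that of Btg2 are printed 5′ to 3′ on the strand of the gene, with the half-sites in capitals for the former and the cAMP response element TGACGTCA in capitals for Btg2.
Cdkn1a, chr17:29090729-29090978: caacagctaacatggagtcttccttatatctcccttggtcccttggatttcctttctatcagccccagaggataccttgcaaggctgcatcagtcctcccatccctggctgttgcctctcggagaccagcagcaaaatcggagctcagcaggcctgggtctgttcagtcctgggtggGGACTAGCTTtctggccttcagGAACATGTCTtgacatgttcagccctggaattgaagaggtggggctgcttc
Mdm2, chr10:117710759-117711008: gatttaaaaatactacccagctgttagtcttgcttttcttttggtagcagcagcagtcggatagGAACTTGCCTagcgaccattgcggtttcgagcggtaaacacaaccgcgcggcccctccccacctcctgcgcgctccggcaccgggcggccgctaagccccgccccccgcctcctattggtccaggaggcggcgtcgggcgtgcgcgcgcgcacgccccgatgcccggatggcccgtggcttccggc
Ccng1, chr11:40755287-40755536: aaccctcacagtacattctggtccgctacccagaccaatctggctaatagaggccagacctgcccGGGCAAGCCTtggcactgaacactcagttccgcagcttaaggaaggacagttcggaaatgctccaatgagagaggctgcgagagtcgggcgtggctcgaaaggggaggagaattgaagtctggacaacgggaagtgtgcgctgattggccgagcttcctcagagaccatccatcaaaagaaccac
Sesn1, chr10:41887189-41887438: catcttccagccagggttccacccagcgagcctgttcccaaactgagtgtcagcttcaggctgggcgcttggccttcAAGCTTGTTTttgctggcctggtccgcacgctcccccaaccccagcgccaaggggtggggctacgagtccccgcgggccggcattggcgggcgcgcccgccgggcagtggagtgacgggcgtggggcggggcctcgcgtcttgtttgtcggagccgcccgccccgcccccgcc
Btg2, chr1:134079156-134079405: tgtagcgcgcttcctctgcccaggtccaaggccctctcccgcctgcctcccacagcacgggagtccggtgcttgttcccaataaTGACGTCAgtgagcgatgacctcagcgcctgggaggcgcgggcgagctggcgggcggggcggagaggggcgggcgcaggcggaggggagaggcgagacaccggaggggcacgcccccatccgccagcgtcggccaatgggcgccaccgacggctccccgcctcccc
The printed Cdkn1a window holds 2 half-sites, GGACTAGCTT beginning 73 bases and GAACATGTCT beginning 51 bases before the start at chr17:29090979. Mdm2 holds GAACTTGCCT 186 bases and Ccng1 GGGCAAGCCT 185 bases before the start. The printed Sesn1 window holds AAGCTTGTTT 173 bases before the start at chr10:41887439. No half-site was matched in the other windows of Cdkn1a (start at chr17:29093769) and Sesn1 (chr10:41810574). Of the 4 genes with a half-site, Cdkn1a, Mdm2 and Ccng1 were called higher in Hb+NTR1 and Sesn1 was called lower, so genes with a match went both ways. The cAMP response element of Btg2, 166 bases before the start, occurs in 1.55% of all windows. For Btg2 and Phlda3 the RefSeq start lies 35 and 34 bases upstream of the GENCODE start, and the bases after it were not found in a GENCODE transcript, so distances to the start depend on the annotation there.

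Other motifs searched in the 10 windows were common promoter elements and sites of stress factors. A CCAAT box (CCAAT) was in 7 windows and in 33.8% of all windows, and a GC box (GGGCGG) in 8 and in 32.7%. A TATA box (TATAAA) was found for Eda2r and in 12.4% of all windows, and an antioxidant response element, the site of NRF2, for Phlda3 and in 10.8%. The AP-1 site (TGANTCA, in 6.75% of all windows), the E-box (CACGTG, 6.02%), the C/EBP-ATF element (TGATGNAA, 3.45%) and the SRF CArG box (1.47%) were matched in none of the 10. A match is a description of the letters, and no match says only that they are not within these windows.

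Per kb of exon, Ccng1 was the most abundant of the 10 transcripts in every group, at 117 ± 6.13 CPM per kb in control (SD, n = 3), 143 ± 8.51 in Hb and 173 ± 3.85 in Hb+NTR1. Control cells then had, in falling order, Phlda3 (33.2), Mdm2 (24.5), Cdkn1a (22.6), Sesn2 (16.0), Sesn1 (10.1), Btg2 (8.17), Zmat3 (7.38), Eda2r (6.73) and Trp53inp1 (4.6 CPM per kb). Of these neighbours, the libraries of Btg2 and Zmat3 overlapped. In Hb, Cdkn1a (30.5) came before Mdm2 (28.7) and overlapped Phlda3 (37.5), Zmat3 (9.77) overlapped Eda2r (9.42), and Btg2 was last at 5.59 CPM per kb. In Hb+NTR1, Cdkn1a (51.3) and Mdm2 (41.5) followed Ccng1. Btg2 had moved from last place to the fourth, at 33.4 ± 2.04, where its libraries overlapped those of Phlda3 (32.1), and Zmat3 was last at 4.61 ± 0.305 CPM per kb.

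**Figure D3:**
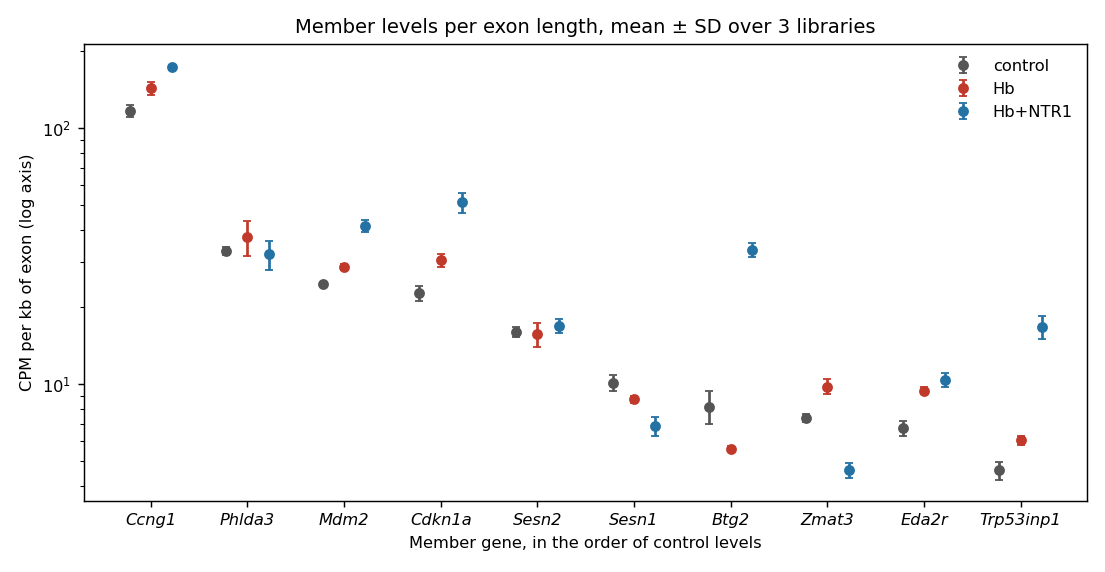
Mean ± SD (3 libraries) of CPM per kb of exon for the 10 genes in each group, on a log axis, in the order of the control levels. Ccng1 leads in all groups, and Btg2 goes from 8.17 in control to 5.59 in Hb and 33.4 in Hb+NTR1.

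Ratios of counts within a library show how far the targets moved apart. Cdkn1a and Zmat3 had nearly equal counts without NTR1: the ratio was 0.894, 0.986 and 0.971 in control and 0.873, 1.07 and 0.979 in Hb. In Hb+NTR1 it was 3.06, 3.62 and 3.72, above every other library. The ratio of Mdm2 to Trp53, the gene of p53, was 0.520, 0.524 and 0.553 in control, 0.638, 0.587 and 0.700 in Hb and 2.58, 2.28 and 2.40 in Hb+NTR1. The 3 groups did not overlap in this ratio.

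Trp53 itself was at 236, 236 and 229 CPM in control, 236, 244 and 205 in Hb and 83.8, 86.5 and 91.5 in Hb+NTR1. Hb and control overlapped and were not called different (log2 -0.03 ± 0.0663, adjusted p = 0.858), so the 6 targets that rose with hemoglobin did so at overlapping levels of Trp53 messenger RNA. Hb+NTR1 was 2.62-fold below Hb (log2 -1.39 ± 0.0693, adjusted p = 2.86e-14). In the same comparison 5 of the 10 targets rose, Zmat3 and Sesn1 fell as Trp53 did, and 3 were not called. The protein, its phosphorylation and its binding to DNA were not measured. Of 15 tested genes among p53 and its regulators, none was called by the main edgeR fit or by DESeq2 in Hb against control. At an unadjusted p under 0.05 there were 1 higher, Ppm1d, and 1 lower, Atr. In edgeR, Ppm1d was called higher without Hb replicate 3 (adjusted p = 0.0325) or with library totals in place of TMM factors (0.045). Without Hb replicate 2, Hipk2 was called higher (0.0341). In each comparison of Hb+NTR1, 7 of the 15 were called higher and 6 lower. Over all tested genes, 3.65% were called in Hb against control, 62.3% in Hb+NTR1 against Hb and 63.6% in Hb+NTR1 against control. Between Hb and Hb+NTR1, Hipk2, a kinase of p53, fell from 93.0 to 35.8 CPM (log2 -1.38 ± 0.148), while the damage kinases Atm and Atr rose from 86.0 to 145 (0.75 ± 0.0886) and from 48.5 to 83.5 CPM (0.79 ± 0.0884). Ppm1d, a phosphatase that turns p53 off and is also its target, was at 29.6 CPM in control and 56.1 in Hb+NTR1 (log2 0.92 ± 0.0848, adjusted p = 1.52e-09). Cdkn2a and Trp73 had no count in any library.

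The p53 targets that promote cell death went both ways with NTR1. Of 14 listed, 11 were tested. In Hb against control, edgeR called 1 higher, Bax, and none lower, and DESeq2 and an unadjusted p under 0.05 also gave none lower. In Hb+NTR1 against Hb, 4 were called higher and 6 lower, where 30.7% and 31.6% of all genes were. In Hb+NTR1 against control, 5 were called higher and 4 lower, where 31.4% and 32.2% of all genes were. Their median log2 fold changes were 0.08, -0.19 and -0.07 in that order, against 0, -0.01 and 0.00 over all genes. Bax, which permeabilises mitochondria, was at 30.5, 26.0 and 31.2 CPM in control, 44.1, 47.4 and 33.6 in Hb and 21, 22.3 and 18.0 in Hb+NTR1. It rose with hemoglobin (log2 0.51 ± 0.113, adjusted p = 0.00844; 0.0833 without control replicate 2) and fell with NTR1 below both other groups (log2 -1.03 ± 0.118 against Hb, adjusted p = 6.17e-08; -0.52 ± 0.120 against control, 0.000657). Bbc3, the gene of PUMA, was at 20.2, 21.5 and 18.0 CPM in control, 24.5, 23.8 and 18.5 in Hb and 10.4, 10.7 and 8.35 in Hb+NTR1, the last group below all other libraries (log2 -1.18 ± 0.131 against Hb, adjusted p = 3.85e-08). The ratio of Cdkn1a to Bbc3 counts was 3.69 to 4.74 in control, 4.28 to 5.66 in Hb and 16.0 to 21.7 in Hb+NTR1. Tnfrsf10b, a death receptor, went the other way, with 32.6, 34.0 and 31.9 CPM in control, 36.1, 34.2 and 31.6 in Hb and 69.0, 69.1 and 69.1 in Hb+NTR1 (log2 1.02 ± 0.0782 against Hb, adjusted p = 6.45e-11). Ei24 rose likewise, from 81.5 to 125 CPM (0.61 ± 0.0661). Pmaip1, the gene of NOXA, and Trp53i11 had no count in any library.

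Of 29 p53 targets in DNA repair, metabolism and other roles, 25 were tested. In Hb against control, 2 were called higher, namely Ephx1, a detoxifying hydrolase (188 to 222 CPM, log2 0.24 ± 0.0615), and Slc19a2, a thiamine transporter (53.6 to 65.7 CPM, 0.29 ± 0.0734), and 1 was called lower. The calls of Ephx1 and Slc19a2 were lost without control replicate 1 (adjusted p = 0.157 and 0.0701) or 2 (0.138 and 0.124), and that of Slc19a2 also without control replicate 3 (0.0854). Of all tested genes, 3.65% were called in Hb against control. In Hb+NTR1 against Hb, 13 of the 25 were called higher and 6 lower, where 30.7% and 31.6% of all genes were (median 0.21). Against control, 14 were called higher and 5 lower, where 31.4% and 32.2% of all genes were (median 0.24). From Hb to Hb+NTR1, Abhd4, a lipase, rose from 73.5 to 142 CPM (0.95 ± 0.0673), whereas Psrc1, a spindle protein, fell from 49.8 to 23.9 (-1.06 ± 0.0845) and Fdxr, a mitochondrial reductase, from 24.3 to 12.9 CPM (-0.92 ± 0.107).

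Family relatives of the 10 genes were read beside them. Of 15 listed, 11 were tested, of which 1 was called higher and none lower in Hb against control (2 lower at an unadjusted p under 0.05 and by edgeR without Hb replicate 2, 1 by DESeq2), 8 higher and none lower in Hb+NTR1 against Hb (none lower by DESeq2 or at an unadjusted p under 0.05 either), and 8 higher and 1 lower in Hb+NTR1 against control. The shares of all tested genes called higher were 1.88%, 30.7% and 31.4% in the 3 comparisons, and those called lower 1.77%, 31.6% and 32.2%. The relative called with hemoglobin was Trp53inp2, at 42.9 CPM in control and 53.5 in Hb (log2 0.32 ± 0.0790, adjusted p = 0.0203). Its adjusted p was 0.065, 0.0593 and 0.133 without control replicate 1, 2 or 3, and 0.0824 without Hb replicate 1. Sesn3, the remaining sestrin, rose from 58.4 ± 6.33 in Hb to 122 ± 2.54 CPM in Hb+NTR1 (log2 1.06 ± 0.0773, adjusted p = 2.67e-11), whereas Sesn1 fell and Sesn2 was not called. Zmat1 rose from 18.6 to 28.7 CPM (0.63 ± 0.109), opposite to Zmat3, and Phlda1 from 5.18 to 12.2 (1.23 ± 0.159), while Phlda3 was not called. Tob1, an antiproliferative relative of Btg2, rose from 77.2 to 129 CPM (0.74 ± 0.0734). Cdkn1c and Phlda2 had no count in any library.

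**Figure D4:**
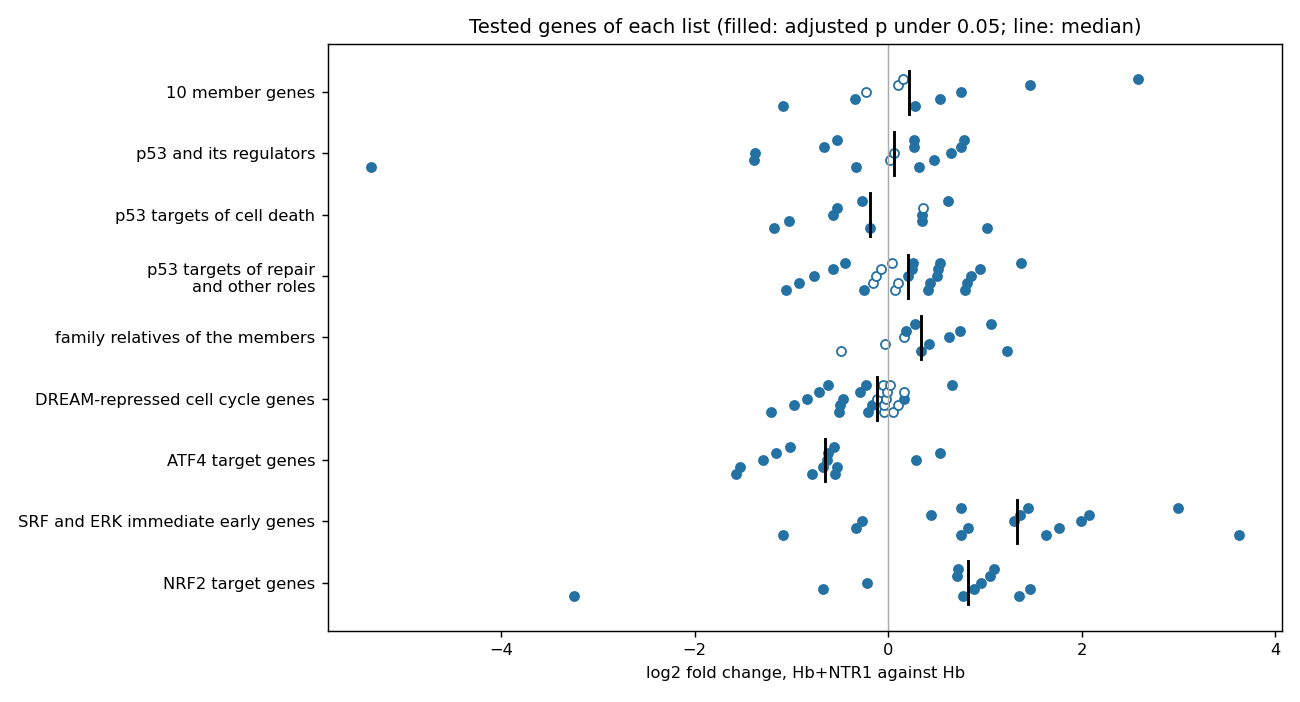
Log2 fold change of each tested gene in Hb+NTR1 against Hb for the 10 genes and 8 related lists, with filled points for an adjusted p under 0.05 and a line at each median. The 10 genes spread from -1.08 to 2.58 around a median of 0.21, and the immediate early list has the highest median, 1.33.

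Lists of processes next to the 10 genes were counted in the same fits. Over all tested genes, 1.88% were called higher and 1.77% lower in Hb against control, and 30.7% and 31.6% in Hb+NTR1 against Hb. Of 25 cell-cycle genes that the DREAM complex represses downstream of p21, none was called by edgeR in Hb against control (2 higher and 1 lower at an unadjusted p under 0.05; 1 lower by DESeq2 and without Hb replicate 2). In Hb+NTR1 against Hb, 2 were called higher (1 without Hb replicate 1, Hb+NTR1 replicate 2 or Hb+NTR1 replicate 3) and 12 lower, with a median log2 fold change of -0.11. The mitotic genes Ccnb2 (27.4 to 11.8 CPM, -1.21 ± 0.112) and Cdc20 (334 to 169 CPM, -0.98 ± 0.0627) fell most. Bub1, also mitotic, rose from 156 to 247 CPM (0.66 ± 0.0637). The other 11 of the 25 were not called, among them Ccnb1 and Cdk1, so the list did not fall as a whole. Of 14 tested targets of ATF4, a factor that also induces Sesn2, none was called by edgeR or DESeq2 with hemoglobin (1 higher and 2 lower at an unadjusted p under 0.05; 2 lower by edgeR without Hb replicate 2), and 2 were called higher (1 without Hb replicate 1) and 12 lower from Hb to Hb+NTR1 (median -0.65). Among them the amino acid transporter gene Slc7a5 fell from 450 to 156 CPM (-1.53 ± 0.0664) and Trib3 from 83.9 to 34.1 (-1.30 ± 0.0920).

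Of 16 immediate early genes of SRF and ERK signalling, 1 was called higher (none without any 1 control replicate or without Hb replicate 1) and 4 lower in Hb against control, and 13 higher and 3 lower in Hb+NTR1 against Hb, with a median of 1.33. The shares over all tested genes were 1.88% higher and 1.77% lower in Hb against control, and 30.7% and 31.6% in Hb+NTR1 against Hb. Btg2 had the same order of groups as several of the immediate early genes. Egr1, an ERK-induced transcription factor, was at 242, 261 and 254 CPM in control, 169, 149 and 176 in Hb and 403, 399 and 409 in Hb+NTR1, again with no overlap and with Hb lowest. Egr3 fell from 13.4 to 6.26 CPM with hemoglobin (log2 -1.10 ± 0.145) and stood at 24.9 with NTR1 (1.99 ± 0.139 against Hb). Fosb, at 3.01 to 3.88 CPM in control and Hb, was at 44.0, 48.4 and 45.7 in Hb+NTR1 (3.63 ± 0.124 against Hb), a larger difference than that of Btg2.

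Of 12 NRF2 targets, which protect against oxidants and iron, 10 were called higher with hemoglobin by edgeR (median 0.52), where 1.88% of all genes were. None was lower by edgeR, by DESeq2 or at an unadjusted p under 0.05. From Hb to Hb+NTR1, 9 were called higher and 3 lower (median 0.83), where 30.7% and 31.6% of all genes were. Hmox1, heme oxygenase, had means of 42.4, 86.8 and 181 CPM in control, Hb and Hb+NTR1, and like Cdkn1a it was called higher at both steps. The peroxide-handling genes Srxn1 and Txnrd1 were at 97.0, 121 and 335 CPM and at 260, 320 and 817 CPM in the same order. Gsta4, a transferase for lipid peroxidation products, was raised by hemoglobin from 106 to 264 CPM (log2 1.32 ± 0.0885) and lowered to 27.7 in Hb+NTR1 (-3.25 ± 0.0996 against Hb), the order shown by Zmat3.

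The genes whose pattern over the 9 libraries was most like that of Cdkn1a, by the root mean square difference of log2 CPM after centring each gene, were Ptgr1 (0.0793), Sqstm1 (0.0795), Pgd (0.0862), Gm42547 (0.0903) and Hagh (0.0952). Ptgr1, prostaglandin reductase, had means of 95.9, 120 and 204 CPM in control, Hb and Hb+NTR1. Sqstm1, the autophagy receptor p62, had 493, 601 and 1070, and Pgd, an enzyme of the pentose phosphate pathway, 206, 279 and 435 CPM. None of the other 9 p53 targets described here was among these. The nearest was Mdm2, with a difference of 0.205 and rank 324 among all tested genes, followed by Ccng1 (0.274, rank 1159) and Eda2r (0.290, rank 1467). Zmat3 (0.873, rank 12172) was the least alike of the 9.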

How the data were processed

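Poly(A) messenger RNA was sequenced in 9 libraries, 3 per group. Per the submitters' processing notes, HISAT2 2.1.0 and HTSeq 0.10.0 were used with GRCm38, after bcl2fastq 2.19.1.403. Not given in the sources used here are the annotation, the strand setting and the handling of multiply mapped reads. The authors deposited raw counts per gene symbol in 54232 entries, of which 98 exact repeats were removed. Their deposited comparison table gives log2 fold changes and p-values for Hb+NTR1 against control by a test that is not named. Columns named N were taken as Hb+NTR1, since that table holds only N and C columns.

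Counts were fitted in R 4.3.3 with edgeR 4.0.16 (filterByExpr with a minimum count of 10, TMM, robust quasi-likelihood F test, two-sided, all 9 libraries, a term for group), which left 13810 genes with a common biological coefficient of variation of 6.90%. CPM are counts over TMM-scaled library sizes, ± gives the SE of a log2 fold change or the SD of a level, and CPM per kb uses the exon length in GENCODE M21. The fit was tested on simulated counts in which a small set of genes was changed in Hb alone, unlike the wide differences of Hb+NTR1. The 10 genes and all lists were chosen with earlier results of these data known, so that their counts are descriptions. All 10 genes are named. From each other list, up to 4 called genes with the largest log2 fold change and at least 5 CPM were eligible, with Trp53 always. An eligible gene of the list of other p53 targets is not reported here. The per-library values of Bax, Bbc3, Tnfrsf10b, Ppm1d, Egr1 and Fosb, the marker Eno2, and genes named for not being called or for 0 counts, were chosen after their values were seen. Replicate numbers were not used to pair the libraries in the main fit. Of 9 same-number pairs, 2 had a correlation of deviations over 0.1 (range -0.0453 to 0.118). Pairs of other numbers between groups ranged from -0.154 to 0.154. With 3 libraries per group, these correlations cannot exclude a pairing. Alternatives were other scalings, filters, DESeq2 1.42.0, fewer libraries and a replicate block.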

Additional observations from a re-analysis of the deposited data

How the results depend on the processing

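Across 13 alternatives for each of the 10 genes and 3 comparisons, 376 of 390 values kept their side of the threshold and, where called, their direction, 10 lost a call, 4 gained one and none that was called reversed. All lost calls were in Hb against control, for Mdm2, Ccng1 and Trp53inp1. Mdm2 also missed the threshold with no filter (adjusted p = 0.0714) and when the fit held only the 6 libraries of that comparison (0.077). All gained calls were of Phlda3, lower in Hb+NTR1 than in Hb, with no filter (0.0168) and in 3 fits with fewer libraries or a block. Over single replicates left out, the genes called in Hb against control ranged from 285 to 1125 (higher 127 to 533, lower 157 to 592), with the highest counts without Hb replicate 2, and the lowest total, 285, without control replicate 2. Without control replicate 1 or 3 the totals were 315 and 286. Of the 10 genes, 4 to 7 were called there (3 to 6 higher, 1 lower in each).

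The replicate number as a block gave 645 called genes in Hb against control, 8706 in Hb+NTR1 against Hb and 8898 in Hb+NTR1 against control, and 7, 8 and 8 of the 10 genes. The added call was Phlda3 (adjusted p = 0.0184), and 3 of 9 libraries correlated best with their own number. Library totals in place of TMM moved the median of all genes by 0.0386, 0.025 and 0.0631 (log2) in the 3 comparisons. Of 624 counts over the other lists, 586 stayed within 1.5 times. Depth limits genes near 0.2 CPM, not the 10 genes, whose lowest library had 15 CPM.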
